A study of Mus musculus with 4 samples.

Results

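The imprinted *Peg10*-*Sgce* domain is a group of neighbouring genes on mouse chromosome 6, and it was followed here through 8 of its genes: *Peg10*, *Sgce*, *Casd1*, *Ppp1r9a*, *Pon2*, *Pon3*, *Asb4* and *Calcr*. These were chosen by name, with earlier results of these data known. All 8 were found once each among the 37310 genes of the count table. The RNA came from HATX, a line of mouse embryonic stem cells (mESCs) that carries an *Xist* transgene that doxycycline can switch on. One group is the wild-type HATX line (HATX WT) and the second (SpenKO) is a single knockout clone for *Spen* derived from it, Clone 2, with 2 libraries each. Both were grown in serum with LIF on gelatin, the labels name no treatment for either, and the study describes the cells as haploid with a deletion of *Spen*; ploidy was not measured here. Each group is 1 cell line, so any other difference between the clone and the WT line is part of every comparison, and nothing says that replicates were separate cultures. The p-values therefore measure only the spread between these libraries, which may be technical.

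Imprinted genes are read from only the maternal or only the paternal copy, as set by DNA methylation laid down in the germ cells. *Peg10* and *Sgce* are the paternally expressed pair of this domain. They start back to back from a region whose maternal copy is methylated in the egg. *Peg10* derives from an ancient retrotransposon and is needed to form the placenta. Several flanking genes, among them *Ppp1r9a*, *Asb4* and *Calcr*, are known for preferential expression of the maternal copy in certain tissues. In a haploid cell, as the study describes these, no gene has both parental copies. Ploidy was not measured here, and the counts do not separate parental copies.

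Library totals ranged from 36667685 to 61908422 counts, and the WT libraries were the shallower ones. *Spen* itself had 3716 and 3047 normalized counts (counts divided by each library's size factor) in WT and 7797 and 6242 in the libraries labelled knockout. It was higher there (log2 fold change 1.05 ± 0.21, SE; adjusted p = 7.7e-06), and its call was lost, at 0.92 and 0.89, without WT replicate 2 or KO-labelled replicate 1. Counts over the whole gene measure neither the protein nor the deleted part, so they do not check the label and do not go against it. The study also probed Spen protein by immunoblot in WT and *Spen* KO mESCs, which is not analysed here. The group is called KO-labelled below. Directions are given by that label. Stem cell markers did not pass the call threshold given below: 0 of 10 were called, against 4.51% of all tested genes. When only an adjusted p below 0.05 was asked, 1 (*Fgf4*, -0.21) was lower and 2 (*Zfp42*, 0.23, and *Dppa5a*, 0.28) were higher. Of all tested genes, 15.8% were lower and 16.4% higher at that limit. *Pou5f1* and *Nanog* had log2 fold changes of 0.01 and -0.06. In bulk RNA, fewer cells expressing a gene and less RNA per cell cannot be told apart.

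*Peg10* transcripts were all but missing where the label was knockout. Calls needed a 2-fold or greater difference together with a DESeq2 adjusted p below 0.001. By this rule 2 of the 8 genes, *Peg10* and *Ppp1r9a*, were lower and 0 were higher, while 3.15% of all 17710 tested genes were called lower and 1.36% higher, 4.51% in all. *Sgce*, *Pon2* and *Asb4* were lower at an adjusted p under 0.05 but were not called, which makes 5 of 8 at that looser limit against a background of 15.8% lower and 16.4% higher (32.3% in all). With any 1 library left out, or with the replicate number as a block, only *Peg10* and *Ppp1r9a* (2 of 8) were past that looser limit. *Casd1*, *Pon3* and *Calcr* passed neither limit. The median log2 fold change of the 8 genes was -1.13, against 0.005 over all tested genes. In 7 of the 8 genes both KO-labelled libraries lay below both WT libraries, as they did in 34.8% of tested genes; the reverse held for 0 of the 8 genes and 35.4% of tested genes, so that 70.2% of all tested genes had groups apart. All 8 genes had an adjusted p.

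**Figure D1:**
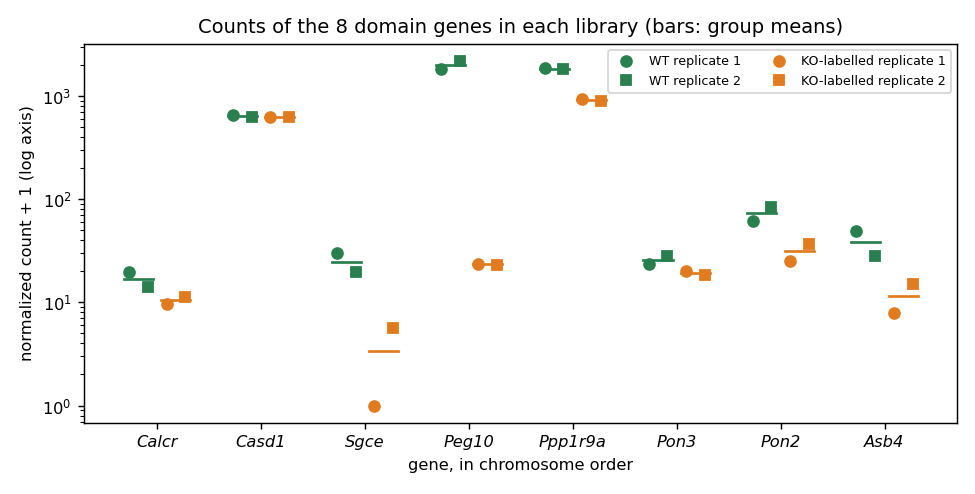
Normalized counts plus 1 on a log axis for the 8 genes in chromosome order, with 1 point per library (green WT, orange KO-labelled) and group means as bars. *Peg10* drops from 1811 and 2168 to 22.6 and 21.9, while the 4 *Casd1* points lie between 621 and 651.

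*Peg10* (ENSMUSG00000092035.1, chromosome 6, 4697306 to 4710514, plus strand, mm9, as are the gene coordinates that follow) encodes Gag- and Pol-like proteins of retrotransposon origin. Normalized counts were 1811 and 2168 for WT and 22.6 and 21.9 for the KO-labelled pair. The groups lie far apart, and the replicates within each are close. Means were 1990 ± 253 and 22.3 ± 0.515 (SD, n = 2), giving a log2 fold change of -6.48 ± 0.24 (SE), or 89.4-fold lower, with an adjusted p of 6.22e-163. Reads still fell on the gene, with raw counts of 26 and 28 in the KO-labelled libraries. Exact copies elsewhere in the genome covered 2.92% of its exonic stretches of 31 bases, and no annotated gene overlaps it. Among the 13306 genes whose mean was 50 normalized counts or more, 7 had a log2 fold change at or below this one, *Peg10* included.

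*Sgce* (ENSMUSG00000004631.9, 4624350 to 4697204, minus strand) encodes epsilon-sarcoglycan, a membrane glycoprotein related to the sarcoglycans of muscle, and is the gene altered in human myoclonus-dystonia. Its annotated start lies 102 bases from that of *Peg10*, on the other strand. Expression was low in both groups, with raw counts of 22 and 17 in WT and 0 and 6 in KO-labelled ones. Normalized counts were 29.2 and 18.5 in WT and 0 and 4.70 in the others. The count of 0, read as at most 3 counts, stands for up to 2.61 normalized counts at that depth. The 2 groups did not overlap. The log2 fold change was -3.31 ± 1.14 (SE; 95% interval -5.54 to -1.07) with an adjusted p of 0.0146, short of the call. With KO-labelled replicate 2 left out, the remaining library is at 0. On that reading it is at least 9.13-fold under the WT mean, whose own error is not counted. With KO-labelled replicate 1 left out the log2 value was -2.33. No fit that left out a library gave *Sgce* an adjusted p, because its counts were under the tool's filter.

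Both genes of the paternally expressed pair were lower at an adjusted p under 0.05, from very different WT levels. Per length, in RPKM (reads per kilobase of exon, scaled to the library's total count), the *Peg10* level in WT was 28.8 and 54.3 times that of *Sgce*. In KO-labelled replicate 2 it was 2.16 times, and in replicate 1 *Sgce* had no reads. The 95% interval of the log2 fold change was -6.95 to -6.02 for *Peg10* and -5.54 to -1.07 for *Sgce*. These intervals did not overlap, the fall of *Sgce* being the smaller in this fit. The *Sgce* value rests on few reads, with raw counts of 0 and 6 in the KO-labelled libraries. Where the library at 0 stands alone, its fold change has only a lower limit. The difference between the fold changes of *Peg10* and *Sgce* was not tested.

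A well-measured gene lies on each side of the pair. *Casd1* (ENSMUSG00000015189.5, 4550840 to 4593381), which encodes the enzyme that adds acetyl groups to sialic acids, starts 146 kb from *Peg10* on the *Sgce* side. It had 651 and 622 normalized counts in WT and 626 and 621 in the KO-labelled libraries. These values overlap. The log2 fold change was -0.03 ± 0.15 (SE; 95% interval -0.31 to 0.26; adjusted p = 0.918).

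*Ppp1r9a* (ENSMUSG00000032827.8, 4853004 to 5115661) starts 156 kb from *Peg10* on the opposite side and encodes neurabin, which ties protein phosphatase 1 to actin filaments in neurons. It had 1852 and 1808 normalized counts in WT and 925 and 898 in KO-labelled ones. The replicates agree closely within each group, and the groups are well apart. Means were 1830 ± 31.4 and 911 ± 19.2 (SD, n = 2), giving a log2 fold change of -1.01 ± 0.11 (SE; adjusted p = 7.2e-19). The 95% interval of -1.22 to -0.79 spans the 2-fold limit. The value fell just short of it, at -0.98, without WT replicate 1 or without KO-labelled replicate 2, and at -0.97 with upper-quartile scaling, so 1 of 8 genes was then called. Its adjusted p was at most 1.01e-06 in all 10 alternatives.

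The 250 bases before the RefSeq start of 4 flanking genes are shown, those with an adjusted p under 0.05 and *Casd1*. Promoter entries were matched for 6 of the 8 genes, all except *Peg10* and *Sgce*. Where a gene has several starts the most upstream was taken. Letters run 5′ to 3′ on the gene's strand, and capitals mark each CG pair, the sequence that DNA methylation acts on. A CG reads the same on both strands. Coordinates here are on build GRCm38.p6.
*Casd1*, chr6:4600661-4600910, plus strand: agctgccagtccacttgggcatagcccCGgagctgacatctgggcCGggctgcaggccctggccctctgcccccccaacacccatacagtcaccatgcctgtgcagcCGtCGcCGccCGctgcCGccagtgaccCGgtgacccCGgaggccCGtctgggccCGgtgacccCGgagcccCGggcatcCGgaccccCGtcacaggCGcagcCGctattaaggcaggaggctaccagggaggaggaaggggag
*Ppp1r9a*, chr6:4902725-4902974, plus strand: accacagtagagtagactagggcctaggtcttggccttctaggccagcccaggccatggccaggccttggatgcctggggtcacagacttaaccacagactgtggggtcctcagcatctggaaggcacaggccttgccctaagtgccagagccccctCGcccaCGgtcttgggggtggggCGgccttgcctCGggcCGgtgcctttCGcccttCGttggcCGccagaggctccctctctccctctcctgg
*Pon2*, chr6:5298341-5298590, minus strand: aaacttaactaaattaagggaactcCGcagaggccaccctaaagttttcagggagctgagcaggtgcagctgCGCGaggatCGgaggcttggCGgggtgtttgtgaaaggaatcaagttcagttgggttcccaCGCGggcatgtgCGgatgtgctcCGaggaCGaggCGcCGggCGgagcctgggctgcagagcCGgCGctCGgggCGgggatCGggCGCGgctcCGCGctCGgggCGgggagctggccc
*Asb4*, chr6:5383136-5383385, plus strand: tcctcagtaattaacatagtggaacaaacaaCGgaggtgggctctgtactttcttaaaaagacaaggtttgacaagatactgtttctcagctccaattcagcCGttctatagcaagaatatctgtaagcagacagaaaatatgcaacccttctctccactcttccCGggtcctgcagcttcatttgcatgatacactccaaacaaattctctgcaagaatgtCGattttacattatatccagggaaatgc
The stretch of *Pon2* held 24 CG pairs, that of *Casd1* 17, that of *Ppp1r9a* 8 and that of *Asb4* 4. Among 27025 genes with such a stretch, 11.7%, 23.5%, 43.4% and 61.9% held as many or more. The stretches not printed, of *Pon3* and *Calcr*, held 6 and 2 CG pairs (50.5% and 80.5%). The log2 fold changes of the printed genes were -0.03 for *Casd1*, -1.01 for *Ppp1r9a*, -1.25 for *Pon2* and -1.82 for *Asb4*, and those of *Pon3* and *Calcr* were -0.46 and -0.74. Methylation was not measured in these libraries.

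The paraoxonases are enzymes that break down lactones and oxidised lipids, and *Pon1*, *Pon3* and *Pon2* lie side by side. *Pon2* (5214147 to 5248455, minus strand), the intracellular and widely expressed form, had 61.0 and 82.8 normalized counts in WT and 24.4 and 36.0 in the KO-labelled libraries. All KO-labelled values were below the WT values. Its log2 fold change was -1.25 ± 0.49 (SE), with an adjusted p of 0.036. This limit was not kept when any 1 library was left out, where the adjusted p ran from 0.104 to 0.428 and the log2 value from -1.56 to -0.99. Exact copies covered 10.5% of its exonic stretches of 31 bases, the largest share among the 8 genes.

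*Pon3* (5170852 to 5206286, minus strand), a form secreted mainly by the liver, had 22.5 and 27.2 normalized counts in WT and 19.2 and 17.2 in KO-labelled ones. The groups did not overlap, but the log2 fold change of -0.46 ± 0.71 (SE; 95% interval -1.86 to 0.95; adjusted p = 0.697) did not pass. *Pon1*, the plasma enzyme, had 1 read in all 4 libraries together. At such counts the interval of *Pon3* also holds the value of *Pon2*.

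*Asb4* (5333386 to 5383022, plus strand) encodes an ankyrin-repeat protein that brings substrates to a cullin ubiquitin ligase and is known from the placenta and hypothalamus. It had 47.7 and 27.2 normalized counts in WT and 6.97 and 14.1 in the KO-labelled libraries. Both groups were spread, yet they did not overlap. The log2 fold change was -1.82 ± 0.74 (SE; adjusted p = 0.0432). Without WT replicate 1 it was -1.36 and without WT replicate 2 it was -2.17 (adjusted p = 0.142). In the other fits that left out a library no adjusted p was given.

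*Calcr* (3635677 to 3714713, minus strand), the receptor of the hormone calcitonin, starts 983 kb from *Peg10*, the farthest of the 8 genes. Normalized counts were 18.6 and 13.1 in WT and 8.71 and 10.2 in KO-labelled ones. The log2 fold change of -0.74 ± 0.93 (SE; 95% interval -2.57 to 1.09; adjusted p = 0.615) did not pass. The microRNA genes *Mir489* and *Mir653* inside it had 0 counts in all libraries, which were not made to capture small RNAs.

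Levels can be set side by side between genes only per length. In WT, *Peg10* led at 6.20 ± 0.867 RPKM (SD, n = 2), followed by *Ppp1r9a* at 3.27 ± 0.0140 and *Casd1* at 3.25 ± 0.0634, whose libraries overlapped. *Pon2* followed at 0.321 ± 0.0728. Then came *Pon3* at 0.206 ± 0.0301, *Asb4* at 0.197 ± 0.0740 and *Sgce* at 0.160 ± 0.0486, each overlapping the next, and *Calcr* was lowest at 0.0837 ± 0.0195.

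In the KO-labelled libraries *Casd1* led at 3.20 ± 0.0549 RPKM, ahead of *Ppp1r9a* at 1.63 ± 0.0536. *Pon3* and *Pon2* overlapped, at 0.151 ± 0.0132 and 0.135 ± 0.0351. *Peg10* came next at 0.0696 ± 0.00243, a level that overlapped the range of *Asb4*, at 0.0556 ± 0.0260, and *Calcr* and *Sgce* were at 0.0501 ± 0.00491 and 0.0157 ± 0.0222. The most abundant transcript of the domain in WT thus stood among its rare ones. Summed over the 8 genes, the level was 13.2 and 14.2 in WT and 5.33 and 5.28 in the KO-labelled libraries. *Peg10* made up 42.5% and 47.9% of that sum in WT and 1.34% and 1.29% in the others, where *Casd1* made up 60.7% and 59.8%.

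**Figure D2:**
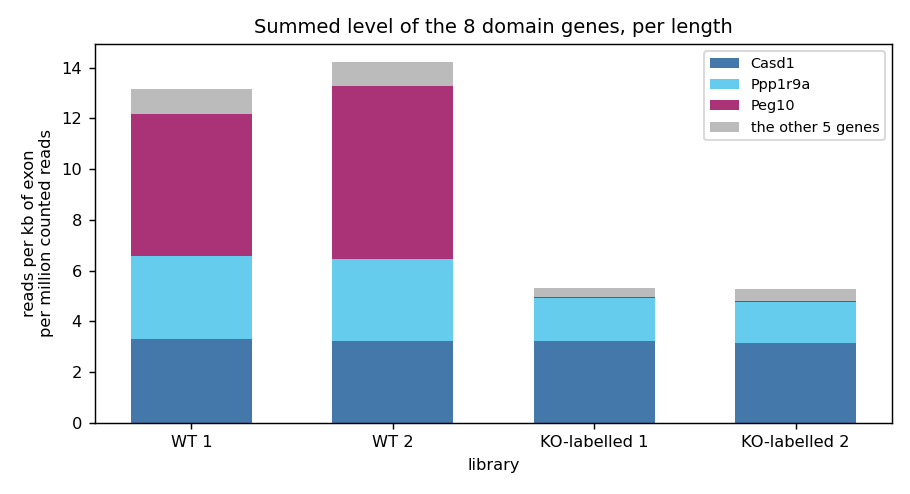
Stacked bars of RPKM for the 8 genes in each library, with the 5 least abundant genes pooled. The *Casd1* segment keeps its height of 3.16 to 3.30 in the 4 libraries, the *Ppp1r9a* segment is 3.26 and 3.28 in WT and 1.67 and 1.59 in the KO-labelled libraries, and the *Peg10* segment is nearly gone from the latter.

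The change was then followed along the chromosome. From 1 Mb before to 1 Mb after the 8 genes the annotation holds 17 other genes, 6 of them with a mean of at least 10 normalized counts. Of the 7 with an adjusted p, 1 was called lower and 0 higher, against 3.15% and 1.36% of all tested genes. The called gene was *Pdk4*, a mitochondrial kinase that restrains the use of pyruvate, which starts 749 kb from *Peg10* just past *Asb4*. Its normalized counts fell from a mean of 287 ± 43.9 to one of 116 ± 22.7 (SD, n = 2), with a log2 fold change of -1.30 ± 0.26 (SE; adjusted p = 6.79e-06). The call was lost without WT replicate 1 (adjusted p = 0.00152), WT replicate 2 (0.0312) or KO-labelled replicate 1 (0.0133), at log2 values of -1.45, -1.13 and -1.11.

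Farther out on that side, *Dync1i1*, a subunit of the motor protein dynein, had a log2 fold change of 0.56 ± 0.52 (SE; adjusted p = 0.47). *Slc25a13*, a mitochondrial carrier of aspartate and glutamate, had 0.59 ± 0.08 (adjusted p = 2.3e-13), higher but under 2-fold. On the *Sgce* side *Bet1*, a protein of vesicle transport, had 0.27 ± 0.13 (adjusted p = 0.104). Beyond *Calcr*, *Ccdc132* had 0.25 ± 0.08 (adjusted p = 0.00804) and *Samd9l*, an antiviral factor, had -1.15 ± 0.46 (adjusted p = 0.041). With the replicate number as a block their DESeq2 adjusted p were 0.0905 and 0.126, so neither was then under 0.05. Counting only genes whose mean was 10 or more, values below 0 ran without a break from *Casd1* (-0.03) through *Sgce*, *Peg10*, *Ppp1r9a*, *Pon3*, *Pon2* and *Asb4* to *Pdk4*, between *Bet1* and *Dync1i1*, which were above 0. The 95% intervals of *Casd1*, *Pon3* and *Dync1i1* span 0, and *Casd1* was above 0, at 0.0087, with upper-quartile size factors. No test of position was made. Over chromosome 6 as a whole, 605 other genes at a mean of 50 or more had a median log2 fold change of 0.06 (0.03 for such genes of all chromosomes), and 28 of its 833 other tested genes (3.36%) were called lower.

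**Figure D3:**
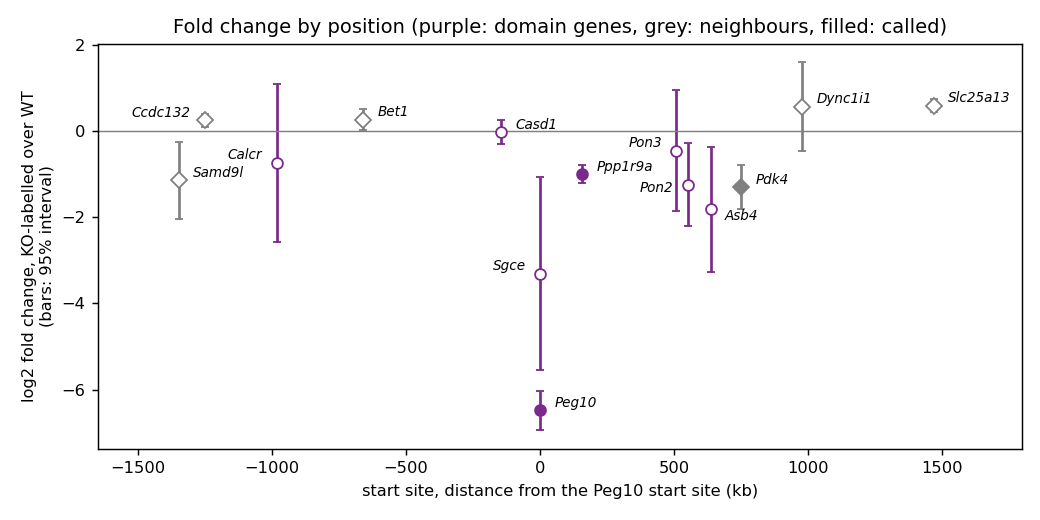
Log2 fold change (KO-labelled over WT, bars 95% intervals) against the distance of each start site from that of *Peg10* in kb, for the 8 genes (purple circles) and the 6 neighbours with a mean of at least 10 (grey diamonds); filled points were called. The filled points are *Peg10*, *Ppp1r9a* and *Pdk4*, and they lie at or to the right of 0 kb.

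**Figure D4:**
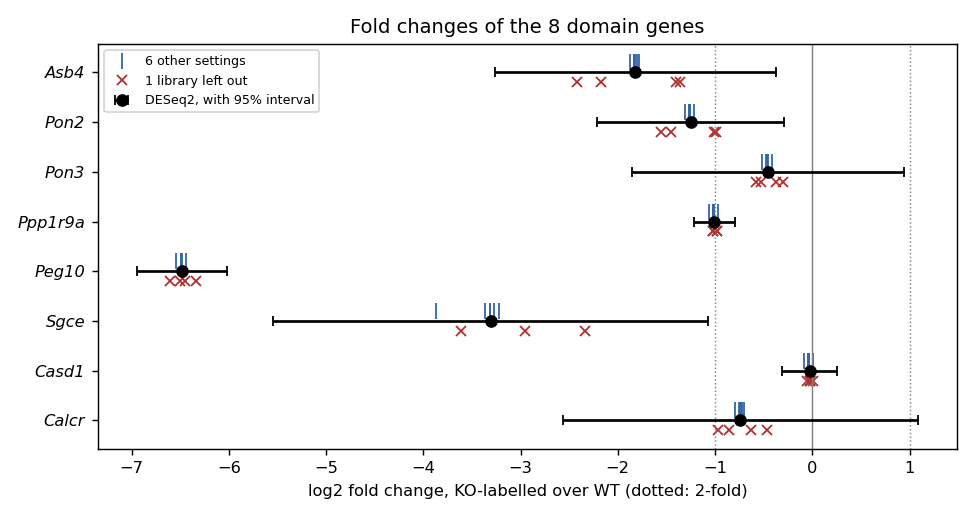
Log2 fold change of each gene with its 95% interval (black), under 6 other settings (blue ticks) and with 1 library left out (red crosses). *Peg10* keeps to -6.60 to -6.34 and *Casd1* to -0.09 to 0.01, while the low genes spread widely; the *Sgce* value without KO-labelled replicate 2 is not drawn because the remaining library is at 0.

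*Peg10* belongs to a set of genes taken over from retrotransposon Gag sequences. The 26 symbols searched matched 17 genes of the table, and 14 of them had an adjusted p. Of these, 3 were called lower, *Peg10* itself among them, and 0 higher, against 3.15% and 1.36% of all tested genes, with a median log2 fold change of -0.61. Besides *Peg10* they were *Pnma5*, on the X chromosome, which fell from 2089 ± 126 to 274 ± 17.2 normalized counts (SD, n = 2; log2 fold change -2.93 ± 0.13, SE), and *Rtl1*, an imprinted gene of chromosome 12 that the placenta needs, which fell from 2767 ± 43.2 to 719 ± 39.6 (-1.94 ± 0.10). *Rtl1* carries 6 microRNA genes on the other strand. Exact copies cover 9.51% of its exonic stretches and 29.6% of those of *Pnma5*, so both counts are uncertain. *Ldoc1l* had -0.65 ± 0.16 (adjusted p = 0.000429), under 2-fold. *Pnma2* and *Arc* had 0.13 and 0.21 and did not pass.

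Partners of the other products were counted in the same way, here and in the next paragraph. Calls are to be read against the 3.15% of all tested genes called lower and the 1.36% called higher. At the looser limit 15.8% were lower and 16.4% higher. Of 16 genes of the dystrophin-glycoprotein complex, to which the sarcoglycans belong, 12 had an adjusted p and 0 were called, and at the looser limit 6 were lower, *Sgce* itself among them, and 1 was higher. *Utrn* and *Dmd*, the large scaffolds utrophin and dystrophin, had log2 fold changes of -0.90 ± 0.08 and -0.77 ± 0.11 (SE), and *Dag1*, dystroglycan, had 0.39 ± 0.07. *Sgcb*, the beta-sarcoglycan, had -0.22 ± 0.23 (adjusted p = 0.535). Of 8 genes of sialic acid synthesis, transport and O-acetylation 0 were called, with 2 lower and 1 higher at the looser limit. *Siae*, which removes the acetyl groups that *Casd1* adds, had 0.17 ± 0.13 (adjusted p = 0.354).

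Of 8 genes of protein phosphatase 1 and its partners, *Ppp1r9a* was the 1 called, and 3 were higher at the looser limit. Its close relative *Ppp1r9b* (spinophilin) had a log2 fold change of -0.07 ± 0.09 (SE; adjusted p = 0.647). Of 22 genes of the Asb family and its cullin-5 ligase, 17 had an adjusted p and 1 was called lower. This was *Asb9*, on the X chromosome, with 17.2 and 34.8 normalized counts in WT and no reads in either KO-labelled library. Set against 3 counts per library, it was at least 10.5-fold lower, or at least 6.95-fold without WT replicate 2. With any 1 library left out, or with the replicate number as a block, *Asb9* had no adjusted p and was not called. Of 10 genes of the calcitonin receptor family 6 had an adjusted p and none was called. *Calcrl*, the receptor subunit for adrenomedullin and CGRP, had a log2 fold change of -1.83 (adjusted p = 0.0683).

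Because *Peg10* and *Asb4* are known from the placenta, trophoblast markers were read beside them. Of 12 symbols, 11 were in the table and 8 had an adjusted p. 1 was called lower and 0 higher, while 3.15% of all tested genes were called lower and 1.36% higher. Those shares also apply to the marker lists that follow. At the looser limit 5 were lower and 1, *Ascl2*, was higher (log2 fold change 0.85, adjusted p = 0.0152), against the same 15.8% and 16.4%. Their summed level was 1826 and 1740 normalized counts in WT and 910 and 983 in KO-labelled ones. Most of the WT sum was *Eomes* and *Krt18*, with log2 fold changes of -0.98 and -0.90. The called marker was *Gata3*, at -2.73 ± 0.31 (SE). *Tpbpa* and *Prl3d1*, which mark differentiated trophoblast, were at 0 in all libraries, and *Elf5* had 4 raw counts in each WT library and 0 in the others. The summed trophoblast level was thus lower in the KO-labelled libraries, as were the primitive endoderm and neural sums given next. Its part in the *Peg10* result was not tested. Primitive endoderm markers summed to 536 and 582 in WT and 286 and 246 in the KO-labelled libraries, with 1 of 5 tested called lower. This was *Sox7*, which was not called with any 1 library left out (log2 values from -1.67 to -1.24). With the replicate number as a block it was not called either (-1.46, DESeq2 adjusted p = 0.00141). Neural markers summed to 11370 and 11617 against 8205 and 8564, with 2 of 4 called lower. These were *Olig2*, at a mean of 2357 in WT and 22.9 in KO-labelled libraries, and *Pax6*, at 450.3 and 89.4, while *Tubb3* and *Nes* had log2 fold changes of -0.05 and -0.28 and did not pass. Fibroblast markers went the other way, from 650 and 693 to 1358 and 1385, with 1 of 5 called higher. This was *Thy1*, at means of 128 and 385, and *Fbln2*, at 467 and 873, had 0.90 ± 0.14 (SE; adjusted p = 7.41e-09), under 2-fold. *Col3a1* had -0.25 (adjusted p = 0.898), *Col1a1* and *Pdgfrb* had 0.98 and 0.57 (adjusted p = 0.188 and 0.455), and the counts of *Dcn*, *Lum* and *Postn* were at most 8 in any library. The part of these cell types was not tested either.

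Finally, the genes most like *Peg10* in shape over the 4 libraries were named, by the distance between centred log2(normalized count + 1) values among 13305 genes above the same mean of 50. With 4 libraries in 2 groups this likeness is mostly the group difference. The nearest was *Olig2*, a transcription factor of neural precursors, at a distance of 0.421, which fell from 2357 ± 241 to 22.9 ± 5.27 normalized counts (SD, n = 2). *Dynlt1b*, a dynein light chain, followed at 0.533, at least 48.2-fold lower, though exact copies cover 83.7% of its exonic stretches. *Mid1*, an X-linked ubiquitin ligase of microtubules, came next at 0.617 and had a log2 fold change of -5.95 ± 0.22 (SE); other genes overlap it on the opposite strand.

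**Figure D5:**
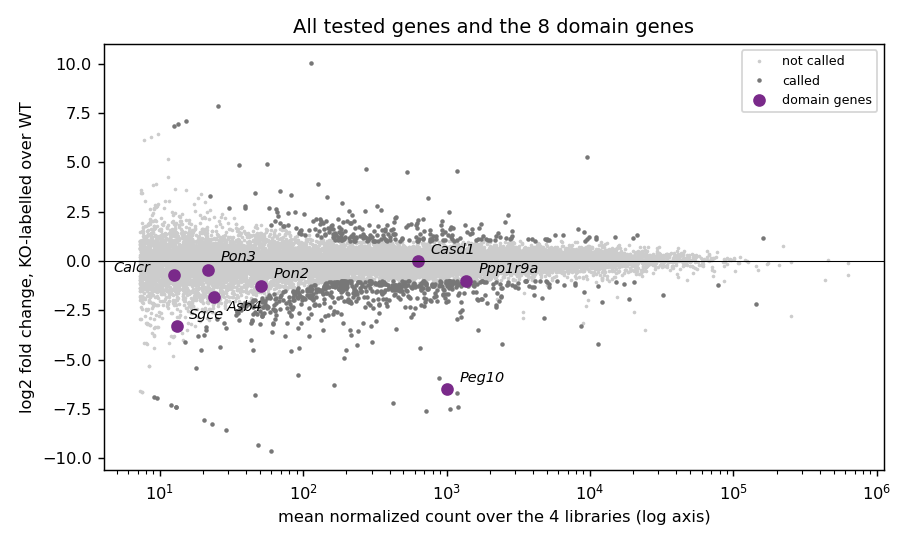
Log2 fold change (KO-labelled over WT) against mean normalized count (log axis) for all 17710 tested genes (light grey, called genes darker), with the 8 domain genes in purple. *Peg10*, at a mean of 1006 and -6.48, stands far below the bulk, while the 5 genes under a mean of 100 lie where the spread of all genes is wide.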

How the data were processed

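Stranded, ribosomal RNA-depleted libraries were sequenced with paired 75-base reads, mapped to mm9 with STAR and assigned to GENCODE vM1 genes with featureCounts by the authors. The authors deposited unnormalized read counts for each gene. Software versions, whether counting used strand, and how multi-mapping reads were treated are not given in the sources used here. All 37310 identifiers matched the annotation, and no column lacked a sample.

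DESeq2 1.42.0 in R 4.3.3 was fitted on the whole table (Wald test, group as the only term, Benjamini-Hochberg adjustment, default filtering), with the study's thresholds of 2-fold and an adjusted p under 0.001. Standard errors are of log2 fold changes, 95% intervals are normal intervals from that error, and a count of 0 was read as at most 3 counts, counting error only. Alternatives were TMM and upper-quartile scaling, removal of the chromosome 6 median, a low-count filter, edgeR 4.0.16, a replicate block, each library left out, looser thresholds and another gene length. Both tools were tested on simulated data.

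The genes and lists were chosen with earlier results of these data known. The rule named all 8 genes, *Spen*, neighbours with a mean of at least 10, up to 3 called genes per context list and direction, and the 3 genes nearest to *Peg10* in shape. Other genes were named after their values were seen. Exact copies are shared 31-base stretches in the NCBIM37 sequence, and promoters are from RefSeq on GRCm38.p6.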

Additional observations from a re-analysis of the deposited data

How the results depend on the processing

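Of the 8 genes, 7 (all but *Casd1*) kept their direction in all 10 alternatives, and *Peg10* was called in each. *Sgce*, *Pon2*, *Pon3*, *Asb4* and *Calcr* were called in none, but *Sgce* and *Calcr* had no adjusted p in 5 of them, *Pon3* in 4 and *Asb4* in 3, so those settings do not assess them. *Casd1* turned to 0.0087 with upper-quartile size factors (0.0084 without WT replicate 1), within its error of 0. *Ppp1r9a* was -0.97 with upper-quartile size factors, below the 2-fold limit, and the count of genes called lower was then 1. Leaving out single libraries gave 1 to 2 genes called lower, and log2 fold changes of -6.60 to -6.34 for *Peg10*, -7.21 to -2.33 for *Sgce*, -0.058 to 0.0084 for *Casd1*, -1.02 to -0.98 for *Ppp1r9a*, -1.56 to -0.99 for *Pon2*, -0.58 to -0.31 for *Pon3*, -2.42 to -1.36 for *Asb4* and -0.97 to -0.46 for *Calcr*. The lowest *Sgce* value comes from a group at 0 and is no bound. Over all genes these fits called 332 to 404 lower and 137 to 185 higher, against 558 and 241. In them the lone library is assumed to vary like the other group. An adjusted p under 0.05, with or without a fold minimum, gave 5 genes lower, as that looser limit admits more. Libraries with the same number were not paired by it (correlation of same-numbered deviations -0.018). With the replicate block *Ppp1r9a* stayed at -1.01 and *Peg10* and *Ppp1r9a* stayed called, while *Pon2* and *Asb4* had adjusted p of 0.109 and 0.13 and *Sgce* had none, which left 2 genes past 0.05 in place of 5. edgeR gave 0.00756 and 0.0117 for them and 0.00621 for *Sgce*. With the longest transcript as length, WT levels were 0.223 for *Sgce*, 3.98 for *Ppp1r9a*, 0.555 for *Pon2* and 0.257 for *Pon3*, by construction. Low counts limit *Sgce*, *Pon3*, *Asb4* and *Calcr* most.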

Other observations

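Genes that set, keep or remove DNA methylation or bind imprinted regions were read as 1 list. Of its 12 genes, 1 was called lower and 0 higher, against 3.15% and 1.36% of all tested genes. At an adjusted p under 0.05 in DESeq2 3 were lower and 7 higher, against 15.8% and 16.4%. The called gene was *Dnmt3l*, a partner of the methyltransferases that set imprints in germ cells, with a log2 fold change of -1.28 ± 0.07 (SE); it shares 67 exonic bases with *Aire* on the other strand. *Dnmt3b* had -0.79 ± 0.07 and *Dppa3* -0.55 ± 0.09, while *Setdb1* and *Tet2* had 0.53 ± 0.07 and 0.61 ± 0.08. *Zfp57* and *Trim28*, which protect imprints after fertilisation, had 0.21 ± 0.07 and 0.26 ± 0.09.

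In the lists of other imprinted regions, 2 of 6 tested genes were called lower around *Snrpn*, 1 of 3 around *Peg3* and 1 of 5 in a list of other chromosome 6 genes (*Mest*, *Copg2*, *Klf14* and, far from these, *Nap1l5* and *Herc3*), and 0 were called higher; 3.15% of all tested genes were called lower. *Mest*, elsewhere on chromosome 6, fell from a mean of 572 ± 12.8 to 33.6 ± 26.6 normalized counts (SD, n = 2). The call was lost without WT replicate 1 or 2 (adjusted p = 0.0140 and 0.0144 in DESeq2). The KO-labelled libraries had 14.8 and 52.4, and the log2 fold change of -4.09 became -3.44 without KO-labelled replicate 1 and -5.27 without replicate 2. Its neighbour *Copg2*, which shares exonic bases with it on the other strand, had a log2 fold change of 0.06 ± 0.08 (SE). In the *Snrpn*-*Ube3a* region *Snrpn* had -3.31 ± 0.23 and *Atp10a* -2.06 ± 0.24, both called lower, while *Ube3a* had 0.22 ± 0.10 (adjusted p = 0.0938 in DESeq2). Exact copies cover 19.5% of the exonic stretches of *Snrpn*, so its count is uncertain. In the *Peg3* region *Peg3* had -7.41 ± 0.27 and was called lower, *Zim1* had -3.45 ± 1.10 (adjusted p = 0.00754) and *Usp29* had 0.48 ± 0.36 (adjusted p = 0.349). Whether these regions changed together with the *Peg10* domain was not tested.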
